A study of Homo sapiens with 6 samples.

Results

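The 58 mitosis and G2/M genes described here encode the kinases, cyclins, checkpoint proteins, kinetochore and spindle parts, and chromosome proteins that carry a cell from the end of DNA replication through division. They were taken from the count table by their gene symbols. The table holds 60708 genes, and the 58 members make up a small share of it. Of the members, 57 were found under the listed symbol, and SGOL1 was found under its newer symbol SGO1. All 58 had at least 10 reads in some sample and were tested together with the rest of the 17401 genes that met this filter.

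RNA-seq was run on Caki-1 cells, an established human clear cell renal carcinoma line, to compare the transcriptome of cells with and without a knockout of VHL. The 3 VC samples were wild-type cells infected with a lenti-CRISPR vector that carried no guide against VHL, and the 3 VHL-KO samples were cells infected with a lenti-CRISPR vector carrying an sgRNA against VHL. The VHL-KO cells were derived as clones after puromycin selection, and how many clones the 3 samples represent is not given in the sources used here, so that the loss of VHL and the properties of a clone cannot be told apart. The labels do not say that the samples of a group came from separate cultures, so p-values here measure only the spread between these samples, which may be technical.

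VHL, the edited gene, encodes the substrate-binding part of a ubiquitin ligase that marks the HIFα proteins for destruction. It lies at chr3:10141778-10153667 on GRCh38. Its mRNA stood at 42.6, 37.8 and 40.1 CPM (reads scaled to library size with edgeR's TMM factors here and below unless another scaling is named) in the VC samples, and at 34.8, 30.4 and 30.5 in the VHL-KO samples. Every VHL-KO sample was below every VC sample, although the gap was small. The log2 fold change was -0.33 (SE 0.11, adjusted p = 0.0109, edgeR quasi-likelihood test, Benjamini-Hochberg adjustment). It did not pass the threshold of 0.05 with upper quartile factors (-0.22), without VC replicate 1 (-0.28), without VHL-KO replicate 2 (-0.30) or with offsets for GC content and length (-0.08), and its adjusted p ranged from 0.000293 to 0.399 over all alternatives (edgeR quasi-likelihood or DESeq2 Wald test, Benjamini-Hochberg adjustment). A Cas9 edit need not remove the mRNA of its target, so this level does not measure the protein. A gene on the opposite strand covers 23.5% of the VHL exons.

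The labelled cell type was checked against marker genes. Of 12 markers of renal epithelium and renal carcinoma, 11 were expressed above the filter, with VIM the most abundant and PAX2 at 0 counts in all samples. Of the 11, 5 were called higher in VHL-KO cells, 2 were called lower and 4 were not called, where 28.5% of all genes tested were called higher and 31.2% lower. The split moved with the scaling, to 3 higher and 4 lower with library size alone and 4 higher and 4 lower with offsets for GC content and length. Their summed level was 8243, 9157 and 8090.2 CPM in the VC samples and 9016, 8437 and 8814 CPM in the VHL-KO samples, most of it from VIM, so that these sums do not show the changes of the other markers. A gene on the opposite strand covers 24.6% of the exonic bases of VIM. Only 1 of 7 leukocyte markers passed the filter, CD14, with sums of 1.70, 1.68 and 1.29 CPM in VC and 4.12, 5.24 and 3.56 CPM in VHL-KO samples, and CD3E and NKG7 were at 0. Of 5 endothelial markers, PECAM1 alone passed it, with at most 14 counts in a sample and with TEK at 0. Of 7 fibroblast markers, COL1A1 and PDGFRB passed it, for sums of 43.3, 47.3 and 37.1 CPM in VC and 29.8, 27.2 and 25.5 CPM in VHL-KO samples, while COL3A1 and LUM were at 0. CD14 and PECAM1 were called higher, at log2 fold changes of 1.47 and 2.73, and COL1A1 and PDGFRB lower, at -0.42 and -1.94. The call of PECAM1 was lost without VC replicate 3.

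Cells enter mitosis when cyclin B binds CDK1 and CDC25 phosphatases remove the inhibitory phosphates that WEE1 and PKMYT1 place on it. The spindle assembly checkpoint then holds the anaphase-promoting complex (APC/C) inactive until every chromosome is attached to the spindle, after which CDC20 lets the APC/C destroy securin and cyclin B. Most of these genes are transcribed in the G2 phase, when the MuvB complex together with MYBL2 and FOXM1 replaces the repressive DREAM form of MuvB at a promoter element called the cell cycle genes homology region (CHR), often placed downstream of CCAAT boxes bound by NF-Y. A bulk sample of dividing cells therefore holds more mRNA of these genes when more of its cells are in G2 and mitosis.

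The promoter sequences that follow show this arrangement for 3 members that fell in VHL-KO cells. The promoter of CDC25B, the member that was not called, is shown beside them for its lack of both elements. They come from RefSeq on GRCh38.p14, with a single start taken per gene symbol. That start can differ from the outermost start of the gene, as it does for PLK1, and other starts were not scanned. The sequences run from 250 bases before to 50 after the start used and are written 5′ to 3′ on the strand of the gene. Each match to the CHR letters TTTGAA or to CCAAT, in either orientation, is in capitals. The promoter of CCNB2, a B-type cyclin, lies at chr15:59104896-59105195 on the plus strand, that of PLK1, a mitotic kinase, at chr16:23678639-23678938 on the plus strand, that of DEPDC1B, the member with the largest fall, at chr5:60700117-60700416 on the minus strand, and that of CDC25B at chr20:3786701-3787000 on the plus strand.
CCNB2: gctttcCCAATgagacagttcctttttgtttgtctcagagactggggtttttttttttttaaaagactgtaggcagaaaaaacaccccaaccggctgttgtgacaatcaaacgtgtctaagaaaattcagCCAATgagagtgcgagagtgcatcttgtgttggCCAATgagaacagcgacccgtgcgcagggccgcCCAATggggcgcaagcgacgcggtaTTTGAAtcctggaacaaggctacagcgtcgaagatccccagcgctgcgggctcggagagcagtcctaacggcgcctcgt
PLK1: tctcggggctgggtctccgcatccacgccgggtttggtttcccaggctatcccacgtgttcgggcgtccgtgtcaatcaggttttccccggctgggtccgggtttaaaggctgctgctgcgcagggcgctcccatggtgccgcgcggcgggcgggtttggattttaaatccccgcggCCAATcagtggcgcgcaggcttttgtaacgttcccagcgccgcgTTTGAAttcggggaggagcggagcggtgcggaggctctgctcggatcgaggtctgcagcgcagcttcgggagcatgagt
DEPDC1B: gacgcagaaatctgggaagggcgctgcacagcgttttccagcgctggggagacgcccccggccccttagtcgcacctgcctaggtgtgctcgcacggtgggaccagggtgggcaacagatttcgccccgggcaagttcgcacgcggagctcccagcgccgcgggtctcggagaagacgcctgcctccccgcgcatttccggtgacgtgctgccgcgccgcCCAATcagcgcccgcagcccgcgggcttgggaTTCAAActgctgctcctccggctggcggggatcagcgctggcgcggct
CDC25B: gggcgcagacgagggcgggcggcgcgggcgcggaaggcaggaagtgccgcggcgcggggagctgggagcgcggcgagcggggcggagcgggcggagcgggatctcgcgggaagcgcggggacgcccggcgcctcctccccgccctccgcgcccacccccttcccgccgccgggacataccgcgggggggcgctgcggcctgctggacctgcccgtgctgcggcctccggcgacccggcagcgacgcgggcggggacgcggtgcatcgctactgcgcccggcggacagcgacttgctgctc
CCNB2 has a CHR whose first base lies 29 bases before the start and 4 CCAAT boxes upstream of it, and PLK1 has the same CHR position with 1 CCAAT box 73 bases before the start. In DEPDC1B the CHR letters are on the other strand, just after the start. CDC25B has neither run of letters in this window. CDC25C, CENPE and KIF2C, also without both, were called lower, at log2 fold changes of -1.54, -1.62 and -1.65.

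Sequencing depth, as reads assigned to genes, ran from 22628246 to 34881739. By sample these were 31789923, 28463579 and 34881739 in VC and 29139722, 22805385 and 22628246 in VHL-KO cells, with every VHL-KO library except replicate 1 smaller than every VC library. Mitochondrially encoded genes took 7.19, 6.05 and 7.38% of the counts in the VC samples and 10.8, 9.63 and 10.1% in the VHL-KO samples. This share was higher in every VHL-KO sample, and its part in the results below was not tested.

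Nearly all mitosis and G2/M genes had less mRNA in VHL-KO cells. The summed level of the 58 members was 5315, 5126 and 5469.6 CPM in the VC samples and 1639, 1611 and 1723 CPM in the VHL-KO samples. The groups were far apart relative to the spread within them, at 5304 ± 172 CPM against 1658 ± 58.6 CPM (mean ± SD, n = 3 each), a 3.20-fold difference. Of the 58 members, 57 were called lower at an adjusted p under 0.05 in edgeR's quasi-likelihood test, against 31.2% of all genes tested. No member was called higher, against 28.5% of all genes, and no member had a log2 fold change above 0. A fall of at least 2-fold was called for 55 members, against 12.3% of all genes, and for 57 members every VHL-KO sample was below every VC sample, against 33.5% of all genes. The median log2 fold change of the members was -2.0, a level in VHL-KO cells of 24.9% of that in VC cells, while the median over all genes was -0.01. At least a 4-fold fall was measured for 30 members, a count for which no share over all genes was taken. The range ran from -3.82 for DEPDC1B to -0.13 for CDC25B. The largest adjusted p among the 57 called members was 0.000853 (PRC1) and the smallest 3.2e-16 (CCNB1), both by the Benjamini-Hochberg method on p-values of the edgeR quasi-likelihood test. In bulk RNA, fewer cells in G2 and mitosis and less of these mRNAs per cell cannot be told apart.

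**Figure D1:**
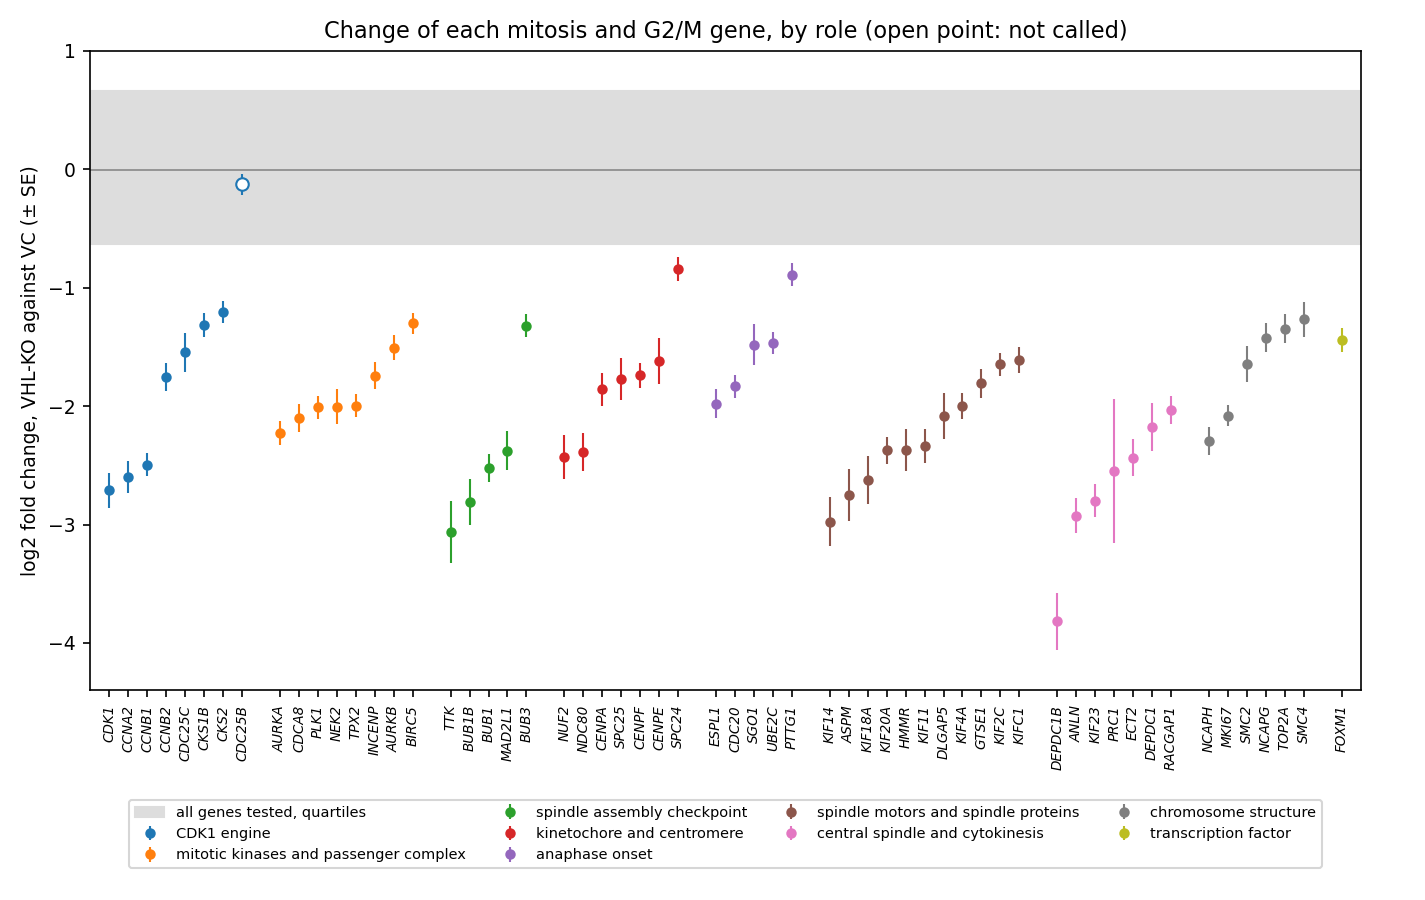
The log2 fold change of each of the 58 members in VHL-KO against VC cells is plotted with its standard error, ordered within role groups, over a grey band for the middle 50% of all 17401 genes tested and a line at their median. All filled points, the 57 members called lower, lie below the band, and the open point of CDC25B lies inside it at -0.13.

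The choice of scaling moved the zero point of all genes. Scaling factors shift all genes nearly alike, so the distance of the members from that point could hardly change and says nothing of stability. With library size alone the median of all genes was -0.20 and that of the members -2.20, and with upper quartile factors these were 0.10 and -1.89, so that the members lay 1.99 below the median of all genes in each of these fits and with TMM factors. With library size alone 6737 genes were called lower and 3764 higher, a split of 64.2% lower among called genes, against 5436 lower and 4958 higher, or 52.3%, with TMM factors.

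The members lie on 20 chromosomes, each of which holds at least 1 member called lower. Levels per kilobase of transcript differed widely among the members. In VC cells CDC20 was at 265, UBE2C at 229 and CKS2 at 212 CPM per kb, the 3 highest levels. In VHL-KO cells the order at the top changed, with CKS2 at 92.0, UBE2C at 83.0 and PTTG1 at 80.6 CPM per kb ahead of CDC20 at 74.4. These genes were chosen after their values were seen, and differences in level between genes were not tested.

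The genes of the CDK1 engine include the kinase that drives entry into mitosis, its cyclins, its activating phosphatases and its small CKS subunits. Of these 8 genes 7 fell, with a median log2 fold change of -1.65. CDK1, the kinase itself (at chr10:60778331-60794852 on GRCh38), was at 46.0, 38.2 and 59.2 CPM in the VC samples and at 7.56, 7.32 and 6.99 CPM in the VHL-KO samples. The VC samples differed more from each other than the VHL-KO samples did, but the lowest VC sample was still far above the highest VHL-KO sample. The fall was 6.55-fold, a log2 fold change of -2.71 (SE 0.15, adjusted p = 1.4e-13, edgeR quasi-likelihood test, Benjamini-Hochberg adjustment). CCNB1 (at chr5:69167135-69178245), which encodes the main cyclin of mitotic entry, was at 225, 207 and 236 CPM in VC and 39.0, 36.9 and 42.5 CPM in VHL-KO samples, a log2 fold change of -2.50 (SE 0.10). CCNB2, the second B-type cyclin, was at 47.8, 44.8 and 48.4 CPM in VC and 15.4, 13 and 13.3 CPM in VHL-KO samples. Its fall, -1.75 (SE 0.12) on the log2 scale, was numerically smaller than that of CCNB1. CCNA2, the cyclin of S phase and G2, was at 42.6, 39.3 and 52.5 CPM in VC and 7.49, 7.23 and 7.46 CPM in VHL-KO samples, a log2 fold change of -2.60 (SE 0.13). For all 3 cyclins the groups were separate, and VC replicate 2 was the lowest VC sample.

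CDC25B encodes a phosphatase that starts CDK1 activation at the centrosome. It was at 149, 162 and 135 CPM in the VC samples and 136, 132 and 140.5 CPM in the VHL-KO samples, so that the groups overlapped. Its log2 fold change of -0.13 (SE 0.09) did not pass the threshold (adjusted p = 0.235, edgeR quasi-likelihood test, Benjamini-Hochberg adjustment). It was called lower with library size alone, at -0.32, and with offsets for GC content and length, at -0.34. CDC25C, a related phosphatase that acts at mitotic entry, had a log2 fold change of -1.54 (SE 0.16). The difference between the 2 phosphatases was not tested.

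**Figure D2:**
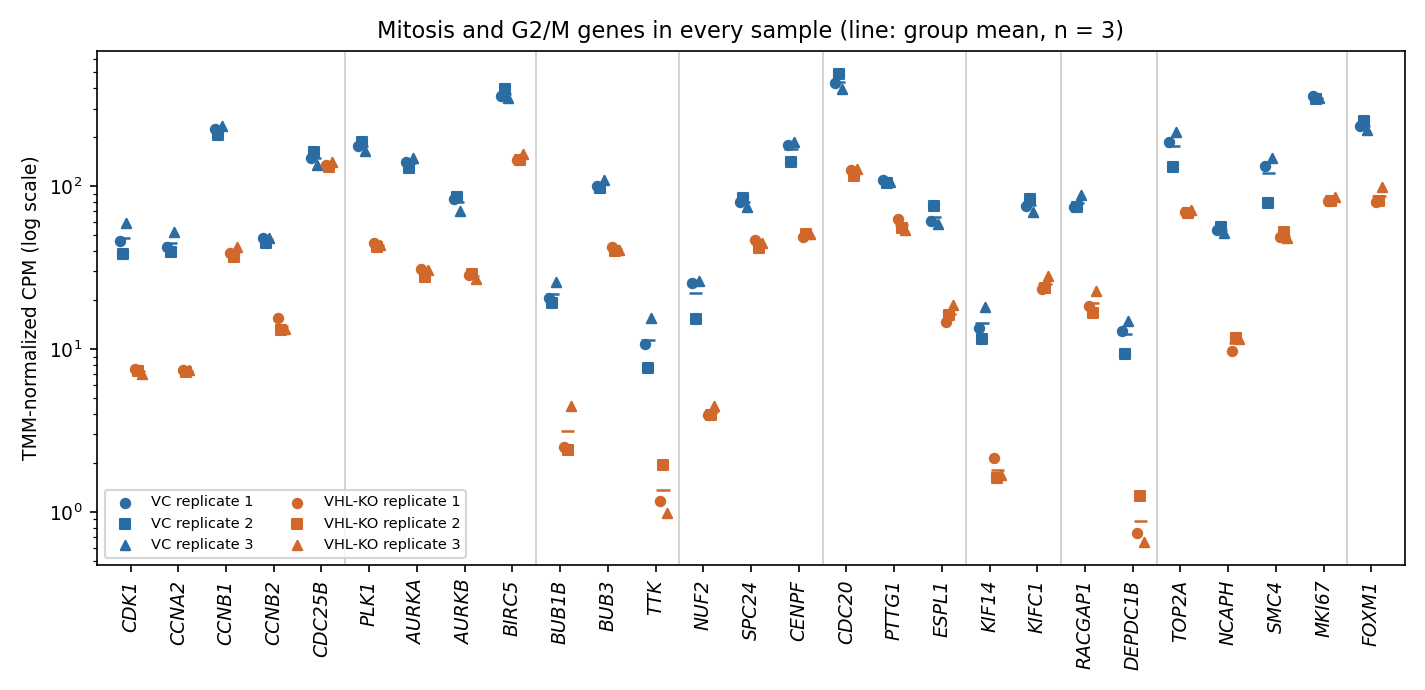
TMM-normalized CPM (log scale) of 27 members in each of the 3 VC samples (blue) and the 3 VHL-KO samples (orange), with the symbol shape giving the replicate and a short line the group mean. Of these genes CDC25B alone has overlapping groups, and for the others each orange point lies below each blue point.

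All 8 mitotic kinases, kinase activators and subunits of the chromosomal passenger complex fell, with a median of -2.0 and adjusted p-values of 2.3e-11 or less in the edgeR quasi-likelihood test, Benjamini-Hochberg adjustment. PLK1, a kinase of mitotic entry and spindle formation, was at 177, 187 and 164 CPM in VC and 45, 42.4 and 43.5 CPM in VHL-KO samples. The groups were separate and the fall was 4.03-fold (-2.01, SE 0.10, on the log2 scale). AURKA, which builds the spindle poles, was at 141, 129 and 149 CPM in VC and 31.1, 27.6 and 30.8 CPM in VHL-KO samples, the largest fall of this group at -2.23 (SE 0.10). Under offsets for GC content and length PLK1, at -2.31, fell more than AURKA, at -2.15. TPX2, the activator of AURKA, had a log2 fold change of -2.0 (SE 0.10). AURKB, the kinase of the passenger complex that corrects faulty attachments, was at 83.3, 86.5 and 70.3 CPM in VC and 28.5, 29.0 and 27.0 CPM in VHL-KO samples, a log2 fold change of -1.51 (SE 0.11). VC replicate 3 was the lowest VC sample for PLK1 and AURKB but the highest for AURKA. BIRC5, which encodes survivin, the part that brings the complex to centromeres, was at 360.3, 396 and 348 CPM in VC and 146, 145 and 158 CPM in VHL-KO samples. It had the smallest change of the group, -1.30 (SE 0.09), and its groups were separate. The remaining subunits, INCENP and CDCA8 (borealin), had log2 fold changes of -1.74 (SE 0.12) and -2.10 (SE 0.12), so that each of the 4 subunits of the complex fell.

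The 5 genes of the spindle assembly checkpoint fell with a median of -2.52 (adjusted p 3.8e-10 or less in the edgeR quasi-likelihood test, Benjamini-Hochberg adjustment). TTK, the kinase that starts checkpoint signaling at unattached kinetochores, was at 10.8, 7.64 and 15.5 CPM in VC and 1.16, 1.95 and 0.985 CPM in VHL-KO samples. VC replicate 3 was about as far above VC replicate 1 as that was above VC replicate 2 on the log scale, and all were well above the VHL-KO samples. The fall of TTK was 8.35-fold (-3.06, SE 0.26, on the log2 scale), the largest of the group. BUB1B, which encodes BUBR1, a part of the mitotic checkpoint complex that binds CDC20, was at 20.5, 19.3 and 25.8 CPM in VC and 2.51, 2.41 and 4.50 CPM in VHL-KO samples, a log2 fold change of -2.81 (SE 0.20). BUB3, its partner in that complex, was at 100.2, 98.0 and 109.7 CPM in VC and 42.4, 40.2 and 40.7 CPM in VHL-KO samples. At -1.32 (SE 0.10), its change was the smallest of the group, and the groups were separate. With offsets for GC content and length it was -0.88. BUB1 and MAD2L1 had log2 fold changes of -2.52 and -2.38.

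Among 7 kinetochore and centromere genes, all fell, with a median of -1.77 (adjusted p 1.2e-07 or less in the edgeR quasi-likelihood test, Benjamini-Hochberg adjustment). CENPF, a large protein of the outer kinetochore that accumulates in G2, was at 179, 140.3 and 186 CPM in VC and 49.0, 51.3 and 51.1 CPM in VHL-KO samples. The VHL-KO samples were close together, VC replicate 2 was the lowest VC sample, and the log2 fold change was -1.74 (SE 0.11). NUF2, a subunit of the NDC80 complex that holds the end of the microtubule, was at 25.5, 15.2 and 26.1 CPM in VC and 3.97, 3.94 and 4.50 CPM in VHL-KO samples, a log2 fold change of -2.43 (SE 0.19). SPC24, another subunit of that complex, was at 80.2, 84.8 and 74.3 CPM in VC and 46.6, 41.9 and 44.9 CPM in VHL-KO samples. Its groups were separate, but its fall of 1.79-fold (-0.84, SE 0.10, on the log2 scale) was the smallest among the 57 called members. Under offsets for GC content and length SMC4, at -0.72, fell less than SPC24, at -0.96. The remaining subunits NDC80 and SPC25 had log2 fold changes of -2.39 (SE 0.16) and -1.77 (SE 0.18), so the 4 mRNAs of this complex fell by different amounts, a difference that was not tested. The centromeric histone gene CENPA and the kinesin gene CENPE changed by -1.86 and -1.62 on the log2 scale.

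The 5 genes of anaphase onset also fell, with a median of -1.48 (adjusted p 8.7e-08 or less in the edgeR quasi-likelihood test, Benjamini-Hochberg adjustment). CDC20, the activator of the APC/C, was at 428, 488 and 395 CPM in VC and 126, 115 and 127 CPM in VHL-KO samples. It was the member with the most counts, 15003 in VC replicate 3, and fell 3.56-fold (-1.83, SE 0.10, on the log2 scale). ESPL1, which encodes separase, the protease that opens cohesin, was at 60.8, 75.7 and 58.9 CPM in VC and 14.7, 16.1 and 18.8 CPM in VHL-KO samples. It had the largest change of the group, -1.98 (SE 0.12), and VC replicate 2 was its highest sample. Under offsets for GC content and length CDC20, at -2.22, fell more than ESPL1, at -2.07. PTTG1, which encodes securin, the inhibitor of separase, was at 109, 105 and 107 CPM in VC and 63.1, 55.7 and 54.1 CPM in VHL-KO samples. The groups were separate, with a log2 fold change of -0.89 (SE 0.10), and PTTG1 and SPC24 were the only called members that fell less than 2-fold. UBE2C, the ubiquitin-conjugating enzyme of the APC/C, and SGO1, the protector of centromeric cohesin, changed by -1.47 and -1.48 on the log2 scale.

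All 11 spindle motors and spindle proteins fell, with a median of -2.34 (adjusted p 1.6e-09 or less in the edgeR quasi-likelihood test, Benjamini-Hochberg adjustment). KIF14, a kinesin of late mitosis, was at 13.4, 11.6 and 18.1 CPM in VC and 2.13, 1.62 and 1.69 CPM in VHL-KO samples. Its fall of 7.86-fold (-2.97, SE 0.20, on the log2 scale) was the largest of the group. KIFC1, a minus-end-directed kinesin that clusters centrosomes, was at 76.1, 83.6 and 69.7 CPM in VC and 23.5, 23.7 and 28.0 CPM in VHL-KO samples. It had the smallest change of the group, -1.61 (SE 0.11), and the groups of both kinesins were separate. Under offsets for GC content and length KIF2C, at -1.57, fell less than KIFC1, at -1.88. KIF11, the motor that pushes the spindle poles apart, changed by -2.34 (SE 0.14) on the log2 scale. The other 8 genes, KIF2C, KIF4A, KIF18A, KIF20A, HMMR, ASPM, DLGAP5 and GTSE1, ranged from -2.75 for ASPM to -1.65 for KIF2C.

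The group of central spindle and cytokinesis genes, in which DEPDC1B and DEPDC1 were also placed, held 7 genes. All fell, with a median of -2.55 that is the value of PRC1 (adjusted p 0.000853 or less in the edgeR quasi-likelihood test, Benjamini-Hochberg adjustment). DEPDC1B, a DEP domain protein that helps cells detach on entry into mitosis, was at 13, 9.39 and 14.9 CPM in VC and 0.749, 1.25 and 0.657 CPM in VHL-KO samples. VHL-KO replicate 2 was the highest of its group, yet far below all VC samples, and the fall was 14.1-fold (-3.82, SE 0.24, on the log2 scale). RACGAP1, a part of the centralspindlin complex, was at 74.3, 74.4 and 88.5 CPM in VC and 18.4, 16.7 and 22.8 CPM in VHL-KO samples, the smallest change of the group at -2.03 (SE 0.12). KIF23, the kinesin of that complex, changed by -2.80 (SE 0.14) on the log2 scale. ECT2, which switches on RhoA for the contractile ring, changed by -2.43, ANLN, a scaffold of that ring, by -2.93, and DEPDC1 by -2.17. Under offsets for GC content and length DEPDC1, at -1.64, fell less than RACGAP1, at -1.79. The value for PRC1, -2.55 (SE 0.61), is uncertain, because it had 1 to 28 counts per sample and 57.6% of its exonic bases lie in another gene on the same strand and 34.3% in one on the opposite strand, where reads can be left out as ambiguous.

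The 6 genes of chromosome structure fell with a median of -1.53 (adjusted p 7.1e-08 or less in the edgeR quasi-likelihood test, Benjamini-Hochberg adjustment), and -1.0 with offsets for GC content and length. MKI67, which encodes the proliferation marker Ki-67, a coat of mitotic chromosomes, was at 359, 343 and 346 CPM in VC and 80.7, 81.2 and 85.7 CPM in VHL-KO samples. Both groups were tight, and the log2 fold change was -2.08 (SE 0.09, adjusted p = 1.4e-15, edgeR quasi-likelihood test, Benjamini-Hochberg adjustment). TOP2A, the topoisomerase that untangles sister chromatids, was at 186, 131 and 216 CPM in VC and 69.2, 68.9 and 71.6 CPM in VHL-KO samples, with a log2 fold change of -1.35 (SE 0.12) that was -0.82 with the offsets. NCAPH, the kleisin subunit of condensin I, was at 53.8, 56.1 and 51.5 CPM in VC and 9.73, 11.6 and 11.6 CPM in VHL-KO samples, the largest change of the group at -2.29 (SE 0.12). SMC4, an ATPase subunit of both condensins, was at 133, 78.5 and 148 CPM in VC and 48.8, 52.4 and 48.3 CPM in VHL-KO samples. It had the smallest change, -1.27 (SE 0.15), and -0.72 with the offsets, and VC replicate 2 was well below the other VC samples for both TOP2A and SMC4. The remaining condensin subunits SMC2 and NCAPG had log2 fold changes of -1.64 and -1.42, and of -1.11 and -0.90 with the offsets. Reads of SMC4 and NCAPG are less certain, since another gene on the opposite strand covers 22% and 33.7% of their exonic bases and the strand setting of the counting is not given in the sources used here.

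FOXM1, a transcription factor that activates G2/M genes and is a member itself, was at 235, 249.9 and 223 CPM in the VC samples and 80.2, 81.2 and 99.2 CPM in the VHL-KO samples. VHL-KO replicate 3 was the highest of its group, the groups were separate, and the fall was 2.72-fold (-1.44, SE 0.10, adjusted p = 8.1e-12, edgeR quasi-likelihood test, Benjamini-Hochberg adjustment).

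The samples of a group were not alike in how low or high the members stood. VC replicate 2 had the lowest VC level for 39 of the 58 members and VC replicate 3 the highest for 37, while in VHL-KO cells replicate 2 was lowest for 27 and replicate 3 highest for 27. The same VC samples deviated from their group by GC content across all genes, with a slope of 0.159 in the former and -0.153 in the latter (log2 per 10 percentage points of GC), against slopes between -0.0136 and 0.00825 for the VHL-KO samples. The change between the groups also followed GC content, at 0.413 log2 per 10 points (Spearman's rho 0.407 across 13144 genes, which are not independent replicates).

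Read within ranges of GC content, the median of the members was below that of all genes in each range. The 22 members with a GC content under 40% had a median of -2.37 and all were called lower, where all genes of that range had a median of -0.47 and 50.9% were called lower. The 11 members from 40% to 45% had a median of -2.23, against -0.31 and 42.9% called lower. From 45% to 50% the median of 11 members was -2.0, against -0.05 and 31.2%. At 50% or more, 13 of 14 members were called lower with a median of -1.63, where all genes had a median of 0.30 and 19.2% were called lower. With offsets that remove the trend of each library with GC content and transcript length, all 58 members were called lower, 52 by at least 2-fold, with a median of -1.87. In that fit 32.0% of all genes were called lower, and the median of all genes was -0.02. No share of all genes called at least 2-fold lower was taken in that fit. A biological change that happens to follow GC content would be removed by these offsets too.

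**Figure D3:**
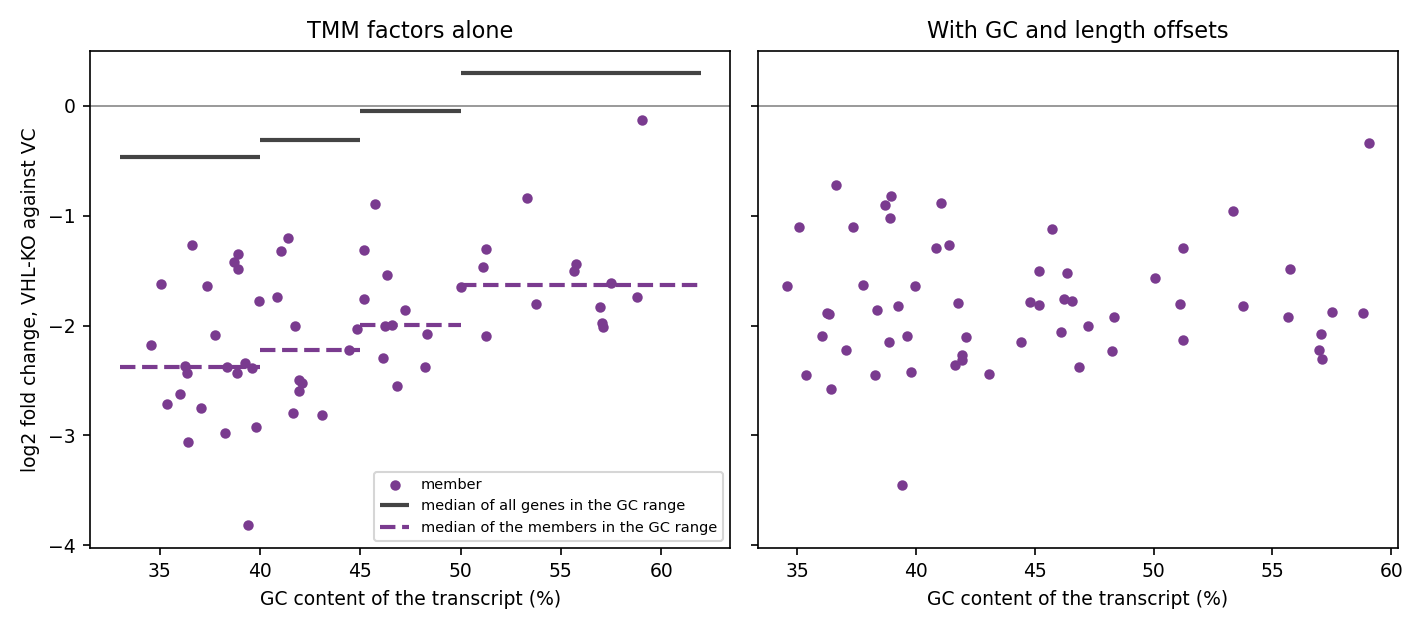
The log2 fold change of each member in VHL-KO against VC cells is plotted against the GC content of its transcript, with TMM factors alone (left) and with offsets for GC content and length (right). Solid lines give the median of all genes and dashed lines that of the members in each GC range, -0.47 against -2.37 under 40% GC and 0.30 against -1.63 at 50% or more.

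The other genes of the pathway were taken from 6 lists with 136 genes, all of which passed the filter. Of these, 111 were called lower and 9 higher, with a median of -1.16, where 31.2% of all genes tested were called lower and 28.5% higher. The same shares of all genes apply to the counts of each list below. Among 22 regulators of the MuvB, MYB, E2F and NF-Y families, 17 fell and 2 rose (median -0.92). MYBL2, the MYB protein that joins MuvB in S phase, was at 338, 407 and 300.0 CPM in VC and 89.2, 94.4 and 96.1 CPM in VHL-KO samples, with separate groups and a log2 fold change of -1.90 (SE 0.10). The MuvB subunits LIN9 and LIN54, of which LIN54 contacts the CHR, changed by -3.43 (SE 0.31) and -1.13 (SE 0.20). Not all MuvB subunits fell as far, and 1 moved the other way. LIN52, named here after its value was seen, changed by -0.56 (SE 0.19), a call lost in 3 of the 15 alternatives, and LIN37, also named after its value was seen, was called higher at 0.72 (SE 0.30), a call lost in 10 of them. LIN37 had 32 to 64 counts per sample and shares 26.7% of its exonic bases with a gene on the same strand and 41.8% with one on the opposite strand. E2F8, a repressor of E2F targets, had the largest change of the list, -4.07 (SE 0.30), from 7.13 ± 0.787 to 0.436 ± 0.287 CPM (mean ± SD, n = 3 each), and the activator E2F1 changed by -1.45 (SE 0.10). MYBL2, LIN9, LIN54, E2F8 and E2F1 had adjusted p-values of 3.4e-05 or less in the edgeR quasi-likelihood test, Benjamini-Hochberg adjustment.

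Of 15 genes that control mitotic entry, 12 fell and 1 rose (median -1.15). The CDK1 inhibitor kinases WEE1 and PKMYT1 and the activating phosphatase CDC25A were all lower. WEE1 was at 29.1, 25.7 and 32.1 CPM in VC and 13.8, 10.9 and 14.4 CPM in VHL-KO samples, a log2 fold change of -1.15 (SE 0.13). PKMYT1 changed by -1.74 (SE 0.12), CDC25A by -1.95 (SE 0.14) and BORA, which helps AURKA activate PLK1, by -1.76 (SE 0.20). PKMYT1 and BORA share 31.9% and 37.0% of their exonic bases with a gene on the opposite strand.

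Among the pathway lists the APC/C and its regulators had the median nearest 0, -0.33, with 12 of 20 genes lower and 3 higher, a difference from the other lists that was not tested. These counts moved with the scaling, to 8 lower and 5 higher with upper quartile factors and 13 lower and 1 higher with library size alone. Over all genes, 31.2% were called lower with TMM factors, 26.8% with upper quartile factors and 38.7% with library size alone. In the same order, 4958, 5712 and 3764 of the 17401 genes were called higher. The 3 largest changes were those of FBXO5, which encodes the APC/C inhibitor EMI1, at -2.73 (SE 0.22), TRIP13, an ATPase that takes the checkpoint complex apart, at -1.81 (SE 0.12), and CDC23, a core subunit, at -1.45 (SE 0.14).

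Of 32 other kinetochore and centromere genes 29 fell and 1 rose (median -1.48), led by OIP5 at -3.11, CENPK at -3.00 and KNL1 at -2.60. OIP5 shares 92.5% of its exonic bases with a gene on the opposite strand and is therefore uncertain, while KNL1, the scaffold of checkpoint proteins at the kinetochore, and CENPK show no such overlap. Of 32 other spindle and cytokinesis genes 27 fell and 1 rose (median -1.48), led by FAM83D, which brings casein kinase to the spindle, at -3.10, the kinesin KIF15 at -2.59 and the abscission protein CEP55 at -2.49. Of 15 cohesin and other condensin genes 14 fell and 1 rose (median -1.06), led by the condensin II subunits NCAPG2 at -2.31 and NCAPD3 at -1.95 and the cohesin subunit SMC1A at -1.84. These 9 genes had adjusted p-values of 2.5e-09 or less in the edgeR quasi-likelihood test, Benjamini-Hochberg adjustment.

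**Figure D4:**
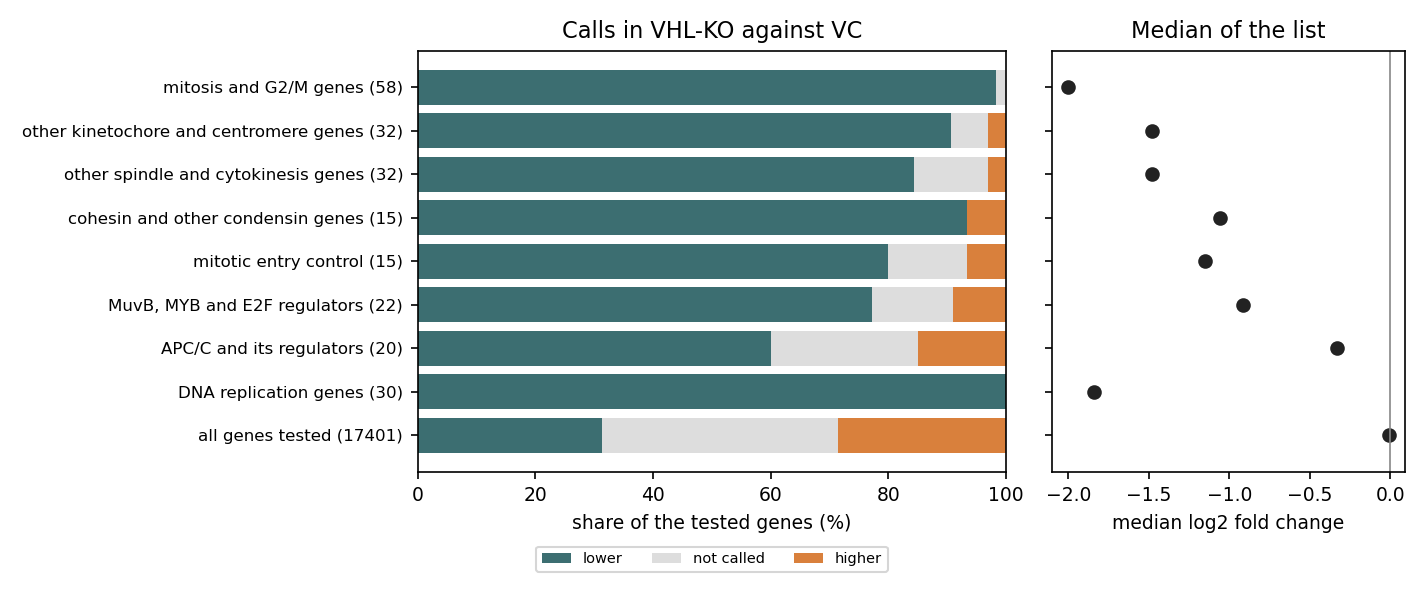
Left, the share of tested genes called lower, not called and called higher in VHL-KO against VC cells in the mitosis and G2/M genes, in 6 lists of other pathway genes, in DNA replication genes and in all 17401 genes tested (numbers of genes in brackets). Right, the median log2 fold change of each, which runs from -2.0 for the members to -0.33 for the APC/C list and -0.01 for all genes.

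Genes of the preceding phase of the cycle were examined beside the members. All 30 DNA replication genes were called lower, against 31.2% of all genes tested, with a median of -1.84. Their summed level was 3036, 3179.7 and 3078 CPM in the VC samples and 929.7, 979.7 and 1029 CPM in the VHL-KO samples. MCM10, a replication initiation factor, changed by -3.23 (SE 0.15), CCNE2, a cyclin of the G1/S transition, by -2.56 (SE 0.31) and RFC3, a subunit of the clamp loader, by -2.37 (SE 0.17). CCNE2 shares 37.1% of its exonic bases with a gene on the opposite strand. Thus the mRNAs of S phase genes were lower along with those of G2 and mitosis, and the difference between the 2 lists was not tested.

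Of 7 CDK inhibitors, 5 passed the filter. CDKN1A, which encodes p21, was at 218, 240.1 and 204 CPM in VC and 407, 386 and 376 CPM in VHL-KO samples. Every VHL-KO sample was above every VC sample, with a log2 fold change of 0.82 (SE 0.09, adjusted p = 2.4e-08, edgeR quasi-likelihood test, Benjamini-Hochberg adjustment). CDKN1C, which encodes p57, rose by 0.63 (SE 0.15), but with the GC and length offsets its value of 0.07 did not pass the threshold. CDKN1B, which encodes p27, was at 27.1, 32.3 and 33.4 CPM in VC and 24.0, 31.2 and 27.8 CPM in VHL-KO samples, groups that overlapped, with a value of -0.16 (SE 0.12) that did not pass the threshold and was called lower with library size alone, at -0.35. The median of the 5 genes was 0.26, and -0.07 with the GC and length offsets. CDKN2A and CDKN2B had 0 counts in all samples, which allows up to 0.0860 to 0.133 CPM by library size without TMM factors (3 counts in a library, counting error only).

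Targets of the HIF transcription factors moved the other way in the same samples. Of 12 such genes 11 rose and 1 fell, EGLN3 at -1.26, which was singled out after its value was seen. Of all genes tested, 28.5% were called higher and 31.2% lower. NDRG1 was at 12.1, 11.1 and 11.7 CPM in VC and 729, 774 and 781 CPM in VHL-KO samples, a log2 fold change of 6.03 (SE 0.11). ADM, which encodes adrenomedullin, had a log2 fold change of 3.55 (SE 0.13). For CA9, 0, 0 and 2 reads were counted in VC cells and 288, 247 and 233 in VHL-KO cells, so no fold is given, and 35.7% of its exonic bases overlap a gene on the opposite strand.

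What the promoters of the members share was described from the RefSeq table, in which 50 of the 58 members were matched by symbol. AURKA, TPX2, BIRC5, BUB3, TTK, UBE2C, RACGAP1 and FOXM1 were not. The CHR in its usual form, TTTGAA on either strand, was found in 36 of the 50 promoters (72.0%), against 15.4% of the 27305 promoters of the same length in the table and 9.77% of the 11382 promoters of tested genes. A CCAAT box, CCAAT on either strand, was found in 39 (78.0%), against 35.7% of all promoters and 36.5% of those of tested genes. Both occurred together in 29 (58.0%), against 6.08% and 4.2% in the same sets, as in the sequences of CCNB2, PLK1 and DEPDC1B shown above. The second form of the CHR, TTTAAA, was in 15 members (30.0%), against 12.3% and 7.71%. The E2F core, GCGCGAA or GCGGGAA on either strand, was in 9 (18.0%), against 8.6% of all promoters and 13.6% of those of tested genes, so the members were close to the tested genes in this motif.

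The matches lay close to the start used for each gene. A TTTGAA that begins within 50 bases on either side of the start was present in 30 members (60.0%), against 4.67% of all promoters. A CCAAT that begins within the 100 bases before the start was present in 34 members (68.0%), against 19%. These windows were chosen after the positions were seen. The CCAAT box was also common in the DNA replication genes, in 16 of 26 promoters (61.5%). In other letters they differed from the members, with TTTGAA in 1 promoter (3.85%) and the E2F core in 17 (65.4%), although their mRNAs were lower in VHL-KO cells as well.

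Members with and without these letters both fell. The 36 members with TTTGAA were all called lower, with a median log2 fold change of -2.08, and of the 14 without it 13 were called lower, with a median of -1.63. The 39 members with CCAAT were all called lower, with a median of -2.08, and of the 11 without it 10 were called lower, with a median of -1.64. CDC25B, whose promoter is shown above, was the exception in both sets. Of all genes tested, 31.2% were called lower, and this share was not taken by motif. The differences between the medians were not tested and do not take GC content into account, which the change between the groups also followed. A match describes letters in this window and no test of binding, and a missing match says nothing of other sites or other starts of the gene.

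**Figure D5:**
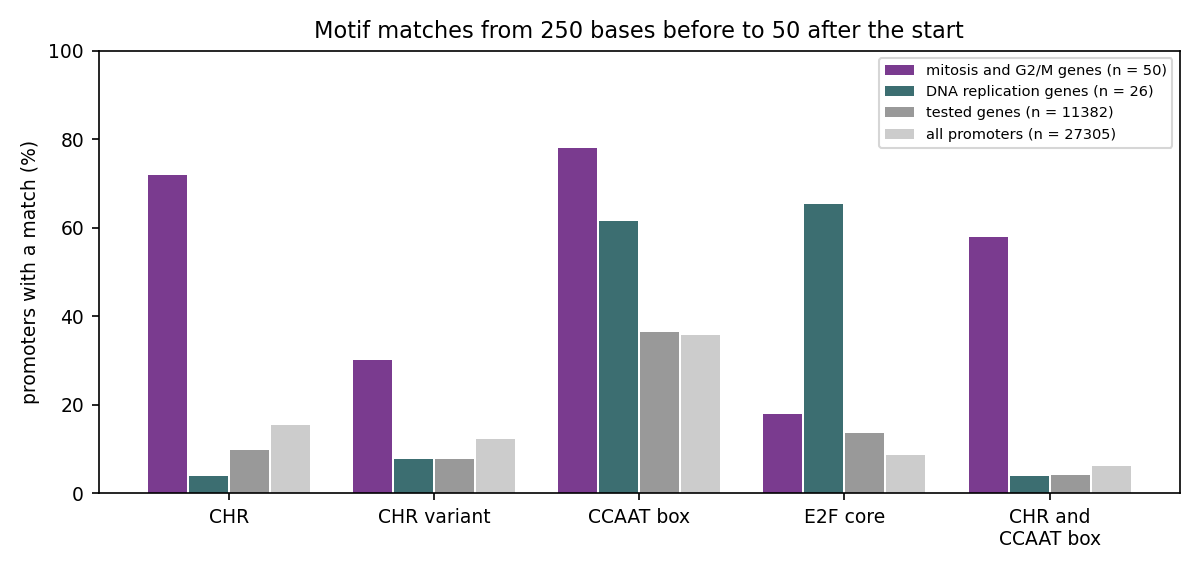
Share of promoters with at least 1 match to each motif, from 250 bases before to 50 after the start, in the mitosis and G2/M genes (50 promoters), the DNA replication genes (26), the tested genes (11382) and all promoters of the table (27305). The usual CHR form reaches 72.0% in the members and 3.85% in the DNA replication genes, and the E2F core 18.0% and 65.4%.

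Near-identical copies can draw reads from some members. The table lists 33 pseudogenes named after 17 members, of which 22 had no count in any sample. The most abundant was CDC20P1, with 104, 81 and 113 reads in VC cells and 11, 13 and 20 in VHL-KO cells, small beside the counts of CDC20. NCAPGP1 went the other way, with 5, 2 and 5 reads in VC cells and 31, 11 and 15 in VHL-KO cells. NCAPG itself had 495, 386 and 401 reads in the VHL-KO samples. The authors kept reads that mapped to a single location, so reads that fit both a member and a copy are missing from the member.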

How the data were processed

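RNA of 3 VC and 3 VHL-KO Caki-1 samples was sequenced on an Illumina NovaSeq. Per the study's methods and the submitters' processing notes, reads were trimmed with Trim Galore and Cutadapt, STAR placed those of at least 20 nt on GRCh38.p13, SAMtools kept the ones with a single location, and HTSeq counted them. The authors deposited raw read counts per gene and sample, without normalization or filtering. Tool versions, annotation release, strandedness and counting mode are not given in the sources used here.

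The 17401 genes that reached 10 reads in some sample were tested with edgeR 4.0.16 in R 4.3.3 (TMM factors, quasi-likelihood F test, two-sided, Benjamini-Hochberg adjustment over all of them, threshold 0.05), without a replicate block. Standard errors are the absolute log2 fold change divided by the square root of F. The procedure was tested on simulated counts. Positions, GC contents and overlaps came from GENCODE release 44 (GRCh38), with 17355 tested genes matched, and promoters from RefSeq (GRCh38.p14). Plots used Python 3.11.15 and matplotlib 3.10.9.

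The members, the role groups, the lists of pathway, DNA replication, CDK inhibitor, HIF target and marker genes, and the motifs were chosen with earlier results of these data known. Values in each sample were given for VHL, for CDK1, CCNB1, CCNB2, CCNA2, PLK1, AURKA, AURKB, CDC20, BUB1B, BUB3, CENPF, TOP2A, MKI67 and FOXM1, and for the member with the largest and the smallest absolute change in each role group. Of each pathway or comparison list the 3 genes with the largest absolute change past the threshold were named, plus MYBL2, LIN54, E2F1, CDKN1A, CDKN1B and WEE1. Alternatives were DESeq2 1.42.0, upper quartile factors, relative log expression factors, no factors beyond library size, other filters, each sample left out, a replicate block, and offsets per library for GC content and length (natural splines with 5 degrees of freedom).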

Additional observations from a re-analysis of the deposited data

How the results depend on the processing

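Of the 58 members, 56 to 58 were called lower and none had a positive value under the 15 alternatives, with all 58 called under library size alone or the GC and length offsets, and 56 of 57 with at least 10 reads in every sample, where PRC1 was not tested. The number of genes called lay between 9215 and 10501, against 10394. Of all genes tested, 19.7% to 38.7% were called lower in these fits. The median log2 fold change of the members, -2.0, was -1.89 with upper quartile factors, -2.20 under library size alone, and -1.87 under the GC and length offsets, whether or not a replicate block was added. Leaving out one sample at a time it lay between -2.04 and -1.93. Samples share only a number: deviations of same-numbered samples correlated at 0.123, -0.0640 and 0.0572, and with the replicate number as a block (replicate block) 57 members were called lower, with a median of -2.01, among 10284 called genes. The cause of these shifts was not tested. No named gene changed direction past the threshold. Counts of PRC1, E2F8, LIN9, CCNE2 and DEPDC1B in VHL-KO samples were low, which limits the precision of their fold changes.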

Other observations

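Of the 136 other pathway genes, 9 were called higher in VHL-KO cells, against the direction of their lists. Of all genes tested, 28.5% were called higher. The 3 largest, chosen after their values were seen, were REC8, a cohesin subunit known from meiosis, at a log2 fold change of 1.41, ANAPC16, a small subunit of the APC/C, at 1.10, and PMF1, a subunit of the MIS12 complex of the kinetochore, at 0.95. Another gene on the same strand covers 23.3% of the exonic bases of PMF1, so its value is uncertain. Over the alternatives the 3 genes lay between 1.06 and 1.56, 0.90 and 1.40, and 0.49 and 1.07.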
